A study of Homo sapiens with 9 samples.

Results

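In MDA-MB-231 cells, a human triple-negative breast cancer line, 2262 chromatin regions were open in both libraries made after knockdown of E2F1 and in none of the libraries made with a control hairpin or after knockdown of EZH2. They were chosen by the presence of a called ATAC-seq peak. The peaks of 6 lists, 2 each from Control shRNA, shEZH2 and shE2F1 cells, were merged wherever they shared 1 bp, which gave 112347 regions, and the 2262 regions were 2.01% of them. The same rule turned the other ways found 2118 regions for Control shRNA (1.89%) and 363 for shEZH2 (0.323%), while 42809 regions had a peak in all 6 lists. Because these counts are the selection itself, nothing is read from them.

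ATAC-seq uses the Tn5 transposase, which cuts and tags DNA where it is not wrapped in nucleosomes. Knockdown cells received a lentiviral short hairpin RNA for 24 h and were kept for 72 h in 2 μg/ml puromycin. Control shRNA, shEZH2 and shE2F1 had 2 libraries each, and shSUZ12, the EZH2 inhibitor GSK126 and its solvent DMSO had 1 each. The DMSO library carries the treatment label WT. The study's methods list a single hairpin sequence against E2F1, so the loss of E2F1 and other effects of that hairpin cannot be told apart. The labels do not say whether replicates came from separate cultures, and the peak lists do not measure how far E2F1 itself fell.

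E2F1 is a transcription factor that activates genes of DNA replication and of entry into S phase. EZH2 is the methyltransferase of Polycomb repressive complex 2, which places the repressive mark H3K27me3, and SUZ12 is a core subunit of that complex. GATA factors bind the DNA word AGATAA and close variants of it, and several of them can open nucleosomal DNA. AP-1, made of FOS and JUN family proteins, binds TGACTCA or TGAGTCA and occupies many enhancers in mesenchymal breast cancer cells.

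GATA and AP-1 words can be seen in the sequence around the summits of the shE2F1-only regions, a summit being the position of the highest signal. Of these, the GATA word set the regions apart. The first 4 sequences below belong to strong regions with a GATA word within 50 bp of the summit. Each is 101 bp of the plus strand of GRCh38 (hg38), centred on the summit, in lower case with the GATA word (AGATAA, or TTATCT where it lies on the minus strand) in capitals. SBF2, an exchange factor for Rab GTPases, RBFOX3, a neuronal splicing factor, SRBD1, which carries an RNA-binding domain, and SLC10A7, a membrane transporter-like protein, hold their region in an intron.
SBF2, chr11:10233761-10233861: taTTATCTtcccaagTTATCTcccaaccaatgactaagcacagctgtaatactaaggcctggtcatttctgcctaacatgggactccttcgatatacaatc
RBFOX3, chr17:79473372-79473472: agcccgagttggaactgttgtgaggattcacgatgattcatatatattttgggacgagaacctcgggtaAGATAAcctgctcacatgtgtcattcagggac
SRBD1, chr2:45554177-45554277: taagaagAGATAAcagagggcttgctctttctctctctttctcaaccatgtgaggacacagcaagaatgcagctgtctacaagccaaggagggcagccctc
SLC10A7, chr4:146495392-146495492: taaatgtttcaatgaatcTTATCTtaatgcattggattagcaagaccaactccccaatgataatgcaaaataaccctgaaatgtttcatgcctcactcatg

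Within these 101 bp, 304 of the 2262 regions (13.4%) held a GATA word, against 4.49% of all merged regions and 3.87% of the Control-only regions. Other strong regions had AP-1 words instead. The next pair is shown with the AP-1 word in capitals, from an intergenic region whose nearest protein-coding transcription start site (TSS) is that of ZEB2, a repressor of epithelial genes, and from an intron of METTL15, a methyltransferase of mitochondrial ribosomal RNA. An AP-1 word lay in 22.1% of the shE2F1-only windows of this length and in 19.0% of all merged regions.
ZEB2, chr2:145460272-145460372: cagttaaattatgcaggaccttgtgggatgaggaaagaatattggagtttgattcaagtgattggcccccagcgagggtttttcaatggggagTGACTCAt
METTL15, chr11:28524267-28524367: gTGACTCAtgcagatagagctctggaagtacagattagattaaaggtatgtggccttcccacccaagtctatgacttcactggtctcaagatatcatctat

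Most of the 2262 regions were weak peaks, and they were weak in both shE2F1 libraries. Fold enrichment, the ratio of the tags at a summit to the local background, had a median of 5.32 in shE2F1 replicate 1 and 5.35 in replicate 2, where the medians of the whole lists were 6.49 and 6.61. The tags at the summit ranged from 8 to 70 around a median of 16 in replicate 1, and from 9 to 103 around a median of 22 in replicate 2. Ranked within its own list, the median region stood at percentile 29.7 in replicate 1 and 32.6 in replicate 2. In both libraries together, 239 regions were above the 50th percentile, 598 were below the 25th, and 2 were above the 90th.

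The summits of the replicates were a median of 35 bp apart, and 62.4% lay within 50 bp of each other, a distance that the choice of a shared and mostly narrow region itself bounds. Across the 2262 regions, which are not independent replicates and share their local sequence and background, log2 fold enrichment in one library correlated with that in the other at Pearson's r = 0.599, and the ranks (Spearman) at 0.557. The regions were narrow, with a median of 332 bp against 421 bp over all merged regions and 808 bp where all 6 libraries had a peak. The sets chosen by the same rule were narrower still, at 307 bp for shEZH2-only and 303 bp for Control-only regions. Narrowness was therefore not particular to shE2F1.

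**Figure D1:**
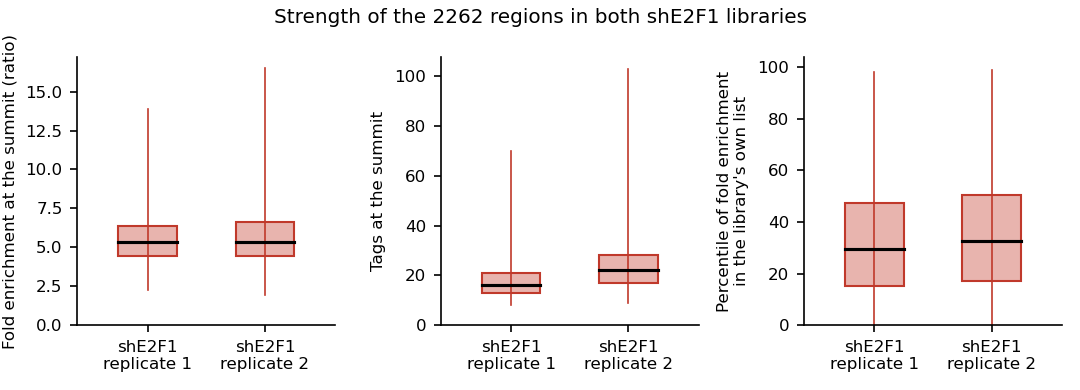
Fold enrichment at the summit (ratio), tags at the summit and percentile of fold enrichment within each library's own peak list, for the 2262 regions in shE2F1 replicates 1 and 2. Boxes span the quartiles with the median as a black line, and the thin lines run from the lowest to the highest region; both medians of the percentile (29.7 and 32.6) lie in the lower part of the lists.

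The choice had a threshold, which was whether a peak was called at all. Inside it, the lowest −log10 q of any member was 2.18, 34 members had a −log10 q under 3 in at least one shE2F1 library, and 1752 reached 5 in both. Just outside it, 2357 regions had both shE2F1 peaks and a peak in exactly 1 of the other 4 lists. That other peak was in Control shRNA replicate 2 for 1074 regions, in Control shRNA replicate 1 for 692, in shEZH2 replicate 1 for 462 and in shEZH2 replicate 2 for 129. Its median −log10 q was 8.07 and its lowest was 2.20. A further 3036 regions had a peak in shE2F1 replicate 1 alone among the 6 lists, and 8897 in replicate 2 alone.

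The lists also differed in length and depth. The lists held from 58626 peaks in shEZH2 replicate 2 to 85812 in shE2F1 replicate 2, with 68294 in shE2F1 replicate 1, and the most frequent background at a summit, a measure of depth, ranged from 1.41 to 2.18 tags over the same libraries. With every list cut to its 58626 best peaks, 1598 regions were found only in shE2F1, 947 only in shEZH2 and 912 only in Control shRNA. The part of depth in the larger shE2F1 number was otherwise not tested. With 2 libraries against 2, no permutation of the labels can give a two-sided p below 0.333, so the report describes shares and gives no p-value. Intervals are 95% Wilson intervals for shares and Newcombe intervals for differences, and they cover counting error only, since regions are not replicates.

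The strongest regions, ranked by the lower of their percentiles, lay far from promoters. First was the region whose nearest protein-coding gene is ZEB2, although its TSS was 940 kb away. It had a fold enrichment of 12 in shE2F1 replicate 1 and 13.9 in replicate 2, at percentiles 94.2 and 95.8, from 29 and 54 tags, and no peak in the other 7 libraries. Next was a region 17.2 kb upstream of CCL20, a chemokine that attracts CCR6-bearing lymphocytes and dendritic cells, at percentiles 98.2 and 90.7. That region also had a peak in shSUZ12, GSK126 and DMSO. These were the 2 regions above the 90th percentile in both libraries.

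Next came the SBF2 intron, at percentiles 87.2 and 98.5, with no peak in the other 7 libraries. The same held for the RBFOX3 intron, at percentiles 87.1 and 86.9, and both of these regions carry the GATA words printed above. An intergenic region 216 kb from the TSS of RIOK2, a kinase of ribosome assembly, stood at percentiles 84.8 and 99.1 and had the highest fold enrichment of any member in replicate 2, 16.5 from 60 tags, and it also had a DMSO peak.

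The rest of the strongest 12 were named after WLS, which carries Wnt ligands to the cell surface, SRBD1, METTL15, SLC10A7, EXT1, a polymerase of heparan sulfate, SORL1, a sorting receptor, and a gene annotated only by an identifier. Their lower percentiles lay between 81.8 and 86.8. The WLS, METTL15, SLC10A7 and EXT1 regions had an AP-1 word, and the SRBD1, SLC10A7 and EXT1 regions had a GATA word. At the other end, a region in an intron of LAMA5, a laminin chain, had a fold enrichment of 2.22 and 1.90, the lowest of all in both libraries, although it had the most tags, 70 and 103, over a high local background.

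The DMSO, shSUZ12 and GSK126 libraries played no part in the choice, and most of the regions had no called peak in them either. A region without a called peak may still hold tags below the caller's threshold. A peak was called in DMSO at 419 of the 2262 regions (18.5%), in shSUZ12 at 314 (13.9%, interval 12.5 to 15.4%) and in GSK126 at 271 (12%). Over all merged regions the shares were 61.8%, 59.1% and 56.9%. The shEZH2-only regions were similar, at 17.4%, 18.2% and 13.8%, while the Control-only regions were found more often, at 40.7%, 38.4% and 28.8%. Each of these conditions had 1 library, so no test between them was possible.

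Of the 2262 regions, 1532 (67.7%, interval 65.8 to 69.6%) had no peak in any of the 3, against 63.9% of the shEZH2-only, 36.2% of the Control-only and 28.4% of all merged regions. A peak in DMSO alone was found at 230 regions, in shSUZ12 alone at 160 and in GSK126 alone at 117, and 51 regions had a peak in all 3. Where a peak was present it was low, with a median percentile of 23.6 in shSUZ12, 23.3 in GSK126 and 22.3 in DMSO. The solvent control held more of the regions than shSUZ12 or GSK126 did, and its list was also the longest of the 3, with 74657 peaks against 73441 and 68756. Besides the CCL20 region, the strongest of the 51 lay 22.7 kb from the TSS of CNN3, an actin-binding calponin, and 350 kb from that of CAMK2D, a calcium-dependent kinase, the nearest protein-coding gene.

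Few of the regions were promoters. Within 1 kb of a protein-coding TSS lay 49 (2.17%, interval 1.64 to 2.85%), compared with 13.1% of all merged regions, 6.28% of the Control-only regions and 26.1% of the regions open in all 6 libraries. The shEZH2-only regions had 2.20%. The shares depended on the definition. With the TSS of every annotated transcript of the protein-coding genes they were 7.60% for shE2F1-only and 6.06% for shEZH2-only regions. They were 14.5% for Control-only and 20.4% for all merged regions. The TSSs of noncoding genes were not searched. With 250 bp windows on each side of the summits in place of the called peaks, they were 4.61% for shE2F1-only, 11.2% for shEZH2-only and 7.18% for Control-only regions, so the shEZH2-only share passed the other 2. With lists of equal length they were 2.19, 4.33 and 5.59%. The shE2F1-only share was 1.2% among regions with no Control shRNA or shEZH2 peak within 1 kb, and 3.36% without shE2F1 replicate 2. Another 40.6% lay in introns, 4.51% in exons and 52.7% between genes, where 40.7% of all merged regions lay. Only protein-coding genes were counted here, so a region between genes may lie inside a noncoding gene. The median distance from summit to the nearest protein-coding TSS was 47777 bp, against 32646 bp over all merged regions. A share of 31.9% were more than 100 kb from that TSS, against 23.5%. The shEZH2-only regions were alike, with a median of 54952 bp, 32.8% beyond 100 kb and 48.2% between genes. The Control-only regions had 34037 bp, 23.4% and 39.3%. The distal place was therefore not particular to shE2F1.

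**Figure D2:**
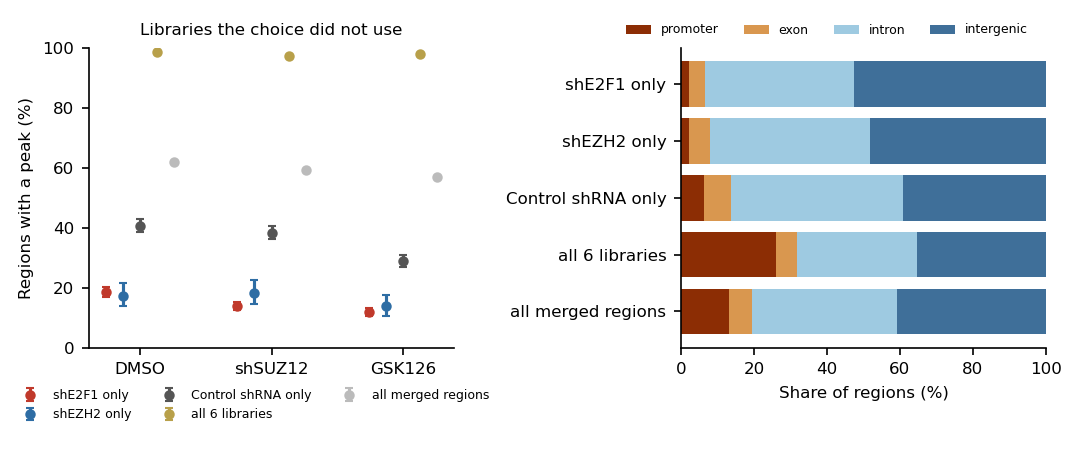
Left, the share of regions (%) with a peak in DMSO, shSUZ12 and GSK126, for regions found only in shE2F1, only in shEZH2, only in Control shRNA, in all 6 libraries, and for all merged regions, with 95% Wilson intervals. Right, the share of the same sets in promoters (within 1 kb of a TSS), exons, introns and between genes, counting protein-coding genes only; the shE2F1-only set has 2.17% promoters and 52.7% intergenic regions.

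Among the stronger promoter regions, that of PCK1, a key enzyme of gluconeogenesis, stood at percentiles 51 and 75.1 with a summit 125 bp from its TSS. MYO3B, a myosin with a kinase domain, OAS1, an interferon-induced sensor of double-stranded RNA, MROH7, SYT14, a synaptotagmin, DMBT1, a secreted mucosal scavenger protein, and P2RX1, an ATP-gated channel, followed with lower percentiles between 25 and 32.6. None of these 7 promoters had a peak in shSUZ12, GSK126 or DMSO. A GATA word lay in 9 of the 49 promoter regions, PCK1 and MROH7 among them.

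The regions were spread over the genome, mostly one at a time. When members less than 50 kb apart were joined, 1944 stood alone, 134 pairs and 14 triples formed, and there were 2 groups of 4. One group of 4 lay at chr10:89478748-89523647 in SLC16A12, a creatine transporter, where 4 of the 7 merged regions were members. The other lay at chr3:177747477-177810496, with 4 of 10 merged regions and no protein-coding gene in its span. The nearest TSSs of its members were those of TBL1XR1, a subunit of the NCoR corepressor complex, and of a gene annotated only by an identifier. The TSS of the latter was 609 kb from 1 of the members. Each group held 1 region with a GATA word. The median distance to the nearest Control shRNA or shEZH2 peak was 5734 bp. It was under 1 kb for 423 regions (18.7%) and over 10 kb for 790 (34.9%).

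By chromosome, the share of merged regions that were members ran from 1.2% on chromosome 21 to 2.65% on chromosome 14 (97 of 3666, interval 2.17 to 3.22%), around the 2.01% of the genome, and none of the 3 regions of chromosome Y was a member.

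The choice did not use the sequence of the regions. A GATA word (AGATAA on either strand) lay within 100 bp of the summit in 519 of the 2262 regions, 22.9% (interval 21.3 to 24.7%). It was present in 8.89% of all merged regions, 6.78% of those open in all 6 libraries, 7.74% of the Control-only and 6.61% of the shEZH2-only regions. The difference was 14.3 percentage points against all other merged regions (interval 12.6 to 16.1), 15.2 against the Control-only regions (13.1 to 17.3) and 16.3 against the shEZH2-only regions (12.9 to 19.1). Of the 19 motifs searched, this was the largest positive difference from the other merged regions. The motif list was set with earlier results of these data known, and the GATA word was taken further, as follows, after its share had been seen.

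Stricter forms of the word were more unequal. AGATAAG was found in 9.37% of the regions, 2.95% of all merged regions, 2.17% of the Control-only and 0.826% of the shEZH2-only regions. A pair of GATA words or more lay in 3.58% of the regions and 0.683% of all merged regions. When all 1859 words of 6 letters found in at least 2% of all merged regions, on either strand, were ranked by the ratio of their shares, without regard to any factor, the first was CTTATC, at 16.5% against 6.36% (ratio 2.59). AGATAA was second (ratio 2.58), followed by TGATAA, at 15.3% against 6.84%. All 3 words contain GATA on one strand, and CTTATC overlaps AGATAA by 5 letters on the opposite strand. The lowest ratio belonged to CGCGCG, at 0.133% against 3.55%.

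The GATA words were centred on the summits. Within 50 bp of the summit there were 15.3 words per 100 shE2F1-only regions, and 7.43 per 100 at 200 to 250 bp, counting both sides, which is an equal length of sequence. The other sets had the opposite shape. The Control-only regions had 3.92 words per 100 in the centre and 6.94 outside, the shEZH2-only regions 2.48 and 7.44, and the regions open in all 6 libraries 3.54 and 5.19.

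**Figure D3:**
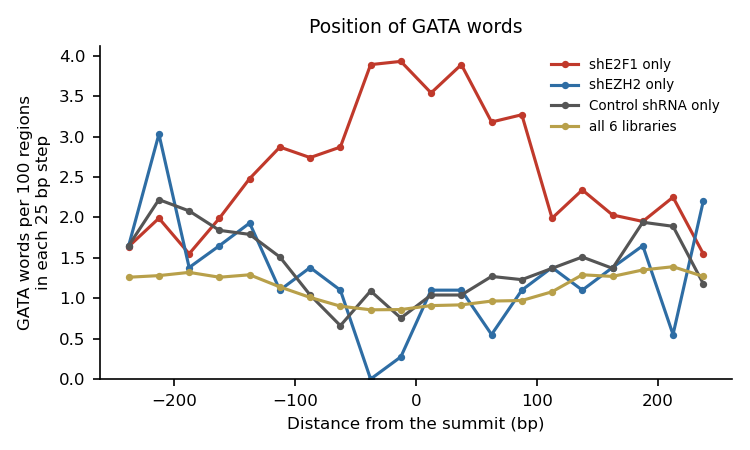
GATA words per 100 regions in steps of 25 bp against the distance from the summit (bp), for regions found only in shE2F1, only in shEZH2, only in Control shRNA and in all 6 libraries. The shE2F1-only line rises to 3.93 words per 100 regions next to the summit, while the other lines are lower in the centre than at the edges.

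The shE2F1-only regions were poorer in G and C than most, with a median GC content of 45.8% against 51.2% over all merged regions, and AT-rich words are more frequent in such sequence. The GATA share was therefore compared in bins of GC content 5 percentage points wide. It was 43.4% against 22.5% of the other merged regions between 30 and 35% GC, 36.4% against 19.4% in the next bin, and 29.3% against 15.8% between 40 and 45%. It was 21.0% against 11.1% between 45 and 50%, 12.2% against 6.96% between 50 and 55%, and 9.55% against 4.09% between 55 and 60%. The shEZH2-only regions had the same median GC content, 45.8%, with 6.61% GATA.

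In the shE2F1 series, the word was less frequent the more widely a region was open. Among regions with both shE2F1 peaks, the share with a GATA word was 22.9% with no other library of the 6, 16.2% with 1, 14.2% with 2, 10.8% with 3 and 6.78% with all 4. The same count for both Control shRNA peaks gave 7.74, 8.69, 10.2, 9.29 and 6.78%, and for both shEZH2 peaks 6.61, 8.05, 7.87, 7.63 and 6.78%. The last value is shared, since it describes the same regions. Median GC content rose along the shE2F1 series, at 45.8, 47.3, 48.8, 49.8 and 54.7%. For shEZH2 it was 45.8, 46.3, 47.3, 49.3 and 54.7%, and for Control shRNA 50.7, 49.8, 49.8, 50.2 and 54.7%. The part of GC content in these series was not tested.

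Peaks that were not part of the 2262 regions gave a value for each library. Among regions with a peak in 1 of the 9 libraries and no other, the GATA share was 10.8% in shE2F1 replicate 1 (interval 9.68 to 12.1%, 2539 regions) and 14.5% in shE2F1 replicate 2 (13.7 to 15.3%, 7283 regions). In the remaining 7 libraries it was 5.92 and 6.88% in Control shRNA, 6.06 and 7.22% in shEZH2, 7.36% in DMSO, 8.55% in GSK126 and 6.78% in shSUZ12. Both shE2F1 libraries were above the other 7. Over all peaks of each list that did not overlap the 2262 regions, the share was 8.43 and 9.20% in shE2F1 and between 6.72 and 7.98% in the other 7, so both shE2F1 libraries were again above the other 7. Other values moved with this. Among the regions with a peak in 1 library, the AP-1 share was also higher in shE2F1, at 17.6 and 24.1% against 13.6 to 16.5% in the other 7, and the median GC content was 51.2 and 48.3% against 50.2 to 55.2%. shE2F1 replicate 2 had the longest list and shE2F1 replicate 1 the second shortest after shEZH2 replicate 2. The part of GC content, strength and list length in the GATA shares of single libraries was not tested.

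**Figure D4:**
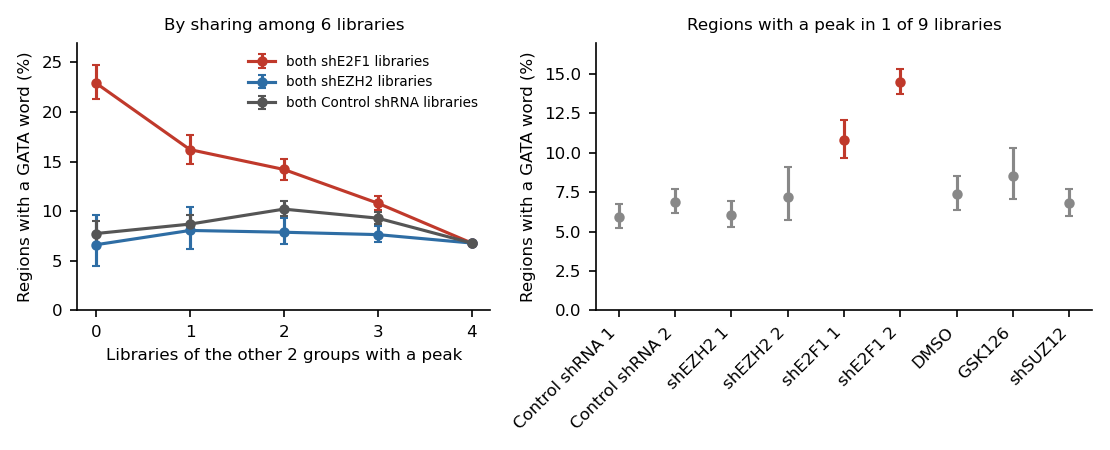
Left, the share of regions (%) with a GATA word within 100 bp of the summit, by the number of libraries of the other 2 groups that also had a peak, for regions with both peaks of shE2F1, shEZH2 or Control shRNA. Right, the same share among regions with a peak in only 1 of the 9 libraries; bars are 95% Wilson intervals, and both shE2F1 libraries (10.8 and 14.5%) lie above the other 7.

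Among the 2262 regions, the GATA word was more frequent in the stronger ones. It lay in 14.7% of the weakest regions, 25.4% of the middle ones and 28.7% of the strongest, where the lower percentile divides the regions into 3 classes of 752 to 756. It was about as frequent in the regions with no peak in DMSO, shSUZ12 and GSK126 (22.5%) as in those with a peak in at least 1 of them (23.8%). The share was 28.0% where shSUZ12 had a peak (interval 23.3 to 33.2%) and 22.1% where it had none (20.3 to 24.0%), with intervals that overlap. It was 23.6% with and 22.9% without a GSK126 peak, and 22.4% with and 23.1% without a DMSO peak. Each of these conditions had 1 library, and no difference was tested. By place, it was 22.5% in introns and 23.7% between genes, where the other merged regions had 9.74 and 10.1%.

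Most promoters of the GATA family itself had no called peak. GATA1, GATA2, GATA3, GATA4 and GATA5 had no peak within 1 kb of their canonical TSS in any of the 9 libraries. GATA6, a regulator of endoderm and heart development, had a promoter peak in all 9, at percentiles 43.2 and 36.2 in shE2F1, 22.7 and 33.4 in Control shRNA and 18.6 and 26.4 in shEZH2. The single DMSO, GSK126 and shSUZ12 libraries stood at 43.0, 46.7 and 47.9, so that shE2F1 was above the 4 Control shRNA and shEZH2 libraries but not above all of these 3. TRPS1, an atypical GATA-type repressor of breast epithelium, also had a peak in all 9, at 39.9 and 55.0 in shE2F1 and 61.6 and 69.5 in Control shRNA, with shEZH2 at 57.8 and 34.4. TRPS1 was the nearest gene of 4 members out of 33 merged regions, GATA3 of 1 out of 61 and GATA5 of 1 out of 15, while GATA2 had 0 of 9, GATA6 0 of 17 and GATA4 0 of 2, beside 2.01% of all merged regions. Peak lists give no transcript or protein level of these factors, and their part in the regions was not tested.

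AP-1 was the most frequent of the 19 motifs but differed less. Its word lay in 31.0% of the regions (interval 29.2 to 33.0%), 29.3% of those open in all 6 libraries, 26.1% of all merged regions, 22.9% of the Control-only and 26.2% of the shEZH2-only regions. Within the GC bins it was close to the other merged regions, at 35.8% against 35.5% between 40 and 45% GC and 34.0% against 34.8% between 45 and 50%. AP-1 was about as frequent with a GATA word as without one, since it lay in 32.4% of the regions with a GATA word and in 30.6% of those without. One or both were present in 46.6% of the regions and in 32.0% of all merged regions. AP-1 also followed strength, with 20.4%, 32.5% and 40.2% in the weakest, middle and strongest of the 3 classes.

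Words of the factor that had been knocked down were rare. The E2F word (TTTCCCGC, TTTCGCGC, TTTGCCGC or TTTGGCGC) lay in 6 of the 2262 regions, 0.265%, against 0.794% of all merged regions and 0.803% of the Control-only regions. The shEZH2-only regions had 0.275%, 1 of 363. Promoter-type words were also scarce, with SP/KLF (GGGCGG) at 5.84% against 16.6% of all merged regions and ETS (CCGGAAGT) at 0.0442% against 1.04%. CTCF, the insulator protein, had its word in 0.752% of the regions, against 3.84% of all merged regions and 5.76% of the Control-only regions. The shEZH2-only regions had few of these words too, with SP/KLF at 2.75%, ETS in none of 363 and CTCF at 1.38%, so the scarcity was not particular to shE2F1.

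Other words were moderately more frequent than over all merged regions. TEAD (GGAATG), the partner of YAP in Hippo signalling, was at 22.9% against 17.1%, but at 24.0% in the shEZH2-only regions. NFY (CCAAT) was at 28.8% against 22.8%, FOX (TGTTTAC) at 4.77% against 3.01%, the homeodomain word (TAATTA) at 4.33% against 2.30% and NF-kB at 5.44% against 4.11%. By GC bin, FOX was at 5.43% against 5.74% of the other merged regions between 35 and 40% GC. Between 50 and 55% it was at 2.49% against 2.82%, and TEAD between 40 and 45% at 21.6% against 22.2%. Both were higher in their remaining bins. NFY, homeodomain and NF-kB words were not compared by GC, and shEZH2-only regions had the homeodomain word at 3.58%. The shEZH2-only regions led instead in RUNX (TGTGGT), 24.8% against 17.1% in shE2F1-only regions, and in ZEB (CAGGTG), 23.4% against 13%. Both differences, −7.68 points (interval −12.6 to −3.22) for RUNX and −10.4 points (−15.2 to −6.10) for ZEB, had intervals that exclude 0. The remaining words were CEBP (TTGCNNAA) at 10.2% against 7.91%, E-box (CACGTG) at 2.48% against 4.01%, SOX (ACAATGG) at 2.48% against 2.26%, POU (ATTTGCAT) at 1.19% against 0.925%, STAT (TTCCNGGAA) at 0.973% against 0.867% and CRE (TGACGTCA) at 0.177% against 0.598%. No spelled-out word was part of another, and words were matched as letters on both strands, and a match is not a measured binding site.

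**Figure D5:**
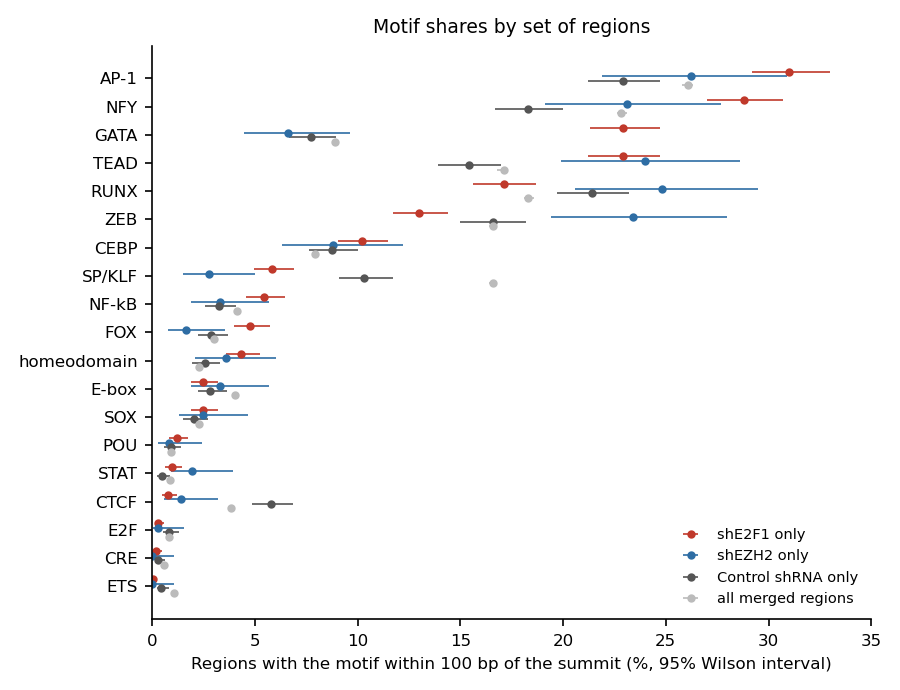
Share of regions (%) with each of 19 motifs within 100 bp of the summit, for regions found only in shE2F1, only in shEZH2, only in Control shRNA and for all merged regions; points are shares and bars are 95% Wilson intervals. GATA stands at 22.9% in shE2F1-only regions and at 6.61 to 8.89% in the other 3 sets, while the AP-1 shares run from 22.9 to 31.0%.

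The nearest genes were many. At least 1 member was nearest to the TSS of each of 1892 of the 20033 protein-coding genes, and 1602 of them had exactly 1, 228 had 2, and 62 had 3 or more. By gene body, PTPRN2, a secretory-granule protein of the tyrosine phosphatase family, held the most with 5 of its 64 merged regions. KAZN, a desmosome-associated protein, PALLD, an actin-bundling protein, RAD51B, a gene of homologous recombination, SLC16A12 and THSD7B held 4 each. These are long genes, and in PTPRN2, KAZN, PALLD and RAD51B the merged regions numbered from 56 to 81. The shares were higher in SLC16A12, with 4 of 15, and THSD7B, with 4 of 31, where members were 2.01% of all merged regions. These are the highest counts among 1002 genes with a member in the body, and nothing is read from them. AGBL4, a carboxypeptidase that trims polyglutamate chains, and ARHGEF28, a guanine nucleotide exchange factor, were listed next with 3 each.

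Counted by nearest TSS and named after their values were seen, NTF3, the neurotrophin-3 ligand, came first with 6 of 43 merged regions, where members were 2.01% of all merged regions. It is the highest count among 1892 genes, and nothing is read from it. CITED2, a CBP/p300-binding coregulator, had 5 of 50, and PKDCC, a secreted kinase of skeletal development, had 5 of 32, one of them with a lower percentile of 72.6. The highest share among those with 4 or more was SLC16A12, with 4 of 10.

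Grouped by function, the shares of members in 12 gene lists ran from 0 to 2.51%, and each interval included the background of 2.01%. Genes of replication and G1/S entry that E2F factors activate had 5 members among the 209 merged regions nearest to them (2.39%), MCM10, MCM2, CCNE1 and RFC3 among the genes with 1 each. The MCM10 region, 15 kb from the TSS of that replication initiation factor, was the strongest at percentiles 81.1 and 59.2, none of the 5 lay at a promoter, and none held a GATA word. Mitosis genes had none of 143 (interval up to 2.62%). Targets of p53 and cell death genes had 5 of 228 (2.19%), led by PMAIP1, which encodes the BH3-only protein NOXA.

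Inflammatory genes downstream of NF-kB had 5 of 199 (2.51%), 2 of them at TNFAIP2 and 1 each at CCL20, CCL2 and TNFAIP3. AP-1 factor genes had 1 of 135 (0.741%), at BATF3, and interferon response genes 1 of 103 (0.971%), the OAS1 promoter. Mesenchymal genes had 11 of 594 (1.85%), with 3 at ZEB2 and 2 each at CDH2, which encodes N-cadherin, TGFB2 and TGFBR2. Epithelial and luminal genes had 4 of 263 (1.52%), 2 of them at GRHL2, and invasion proteases and matrix genes had 2 of 251 (0.797%), at ADAMTS6 and TIMP3.

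Polycomb genes had 5 of 225 (2.22%), 2 at JARID2, a PRC2 cofactor, 2 at PCGF5 and 1 at LCOR. The stronger JARID2 region, 149 kb from the TSS, stood at percentiles 72.6 and 88.4, held a GATA word and had no peak in the 7 other libraries. Developmental transcription factors, a class that PRC2 often represses, had 18 of 779 (2.31%), 2 each at LHX2, SOX9 and TBX18. The MEIS2 region led them at percentiles 79.4 and 66.9, and had a peak in shSUZ12 and GSK126. A GATA word lay in 8 of the 18, beside 22.9% of all members. It lay in 3 of 11 for mesenchymal, 5 of 16 for neural and 0 of 5 for replication genes. These counts are small, and no difference between lists was tested. Neural adhesion and synapse genes had 16 of 858 (1.86%), 3 of them at NTM, a cell adhesion molecule of neurons.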

How the data were processed

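ATAC-seq had been performed on 9 MDA-MB-231 libraries, grouped here by their GEO labels. Per the methods and processing notes of the submitters, the authors aligned reads with Bowtie2 (build hg38/GRCh38) and shifted them for the Tn5 cutting position before calling peaks. The peak caller is not given in the sources used here. Each library has its own deposited list, without pooling of replicates. The deposited columns used were fold enrichment (a ratio to local background), −log10 p and −log10 q. The deposited score column was not used.

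Peaks of the 6 Control shRNA, shEZH2 and shE2F1 lists were merged at an overlap of 1 bp, and regions were selected by presence of a peak. Tags at a summit were recovered from fold enrichment and −log10 p under a Poisson background, within 0.01, for 100% of the peaks with a −log10 p under 250 in every list. A percentile is the rank of a peak's fold enrichment within its own list. The 19 motifs were searched on both strands in GRCh38, up to 100 bp from the summit of the peak with the highest −log10 p in each region. Promoters reached 1 kb to each side of the canonical TSS of 20033 protein-coding genes of GENCODE 44, and promoters took precedence over exons, and exons over introns. Exons were those of the canonical transcripts, introns the rest of the bodies of protein-coding genes, and intergenic all other sequence, noncoding genes included. The build of the peaks was taken from the submitters' notes. The members, the motifs and the 12 gene lists (408 entries) were chosen with earlier results of these data known.

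Named were the 12 strongest regions by the lower percentile, the 8 strongest at promoters, the 3 strongest absent from and the 3 present in all other libraries, the 8 genes whose bodies held most members (ties by alphabet), and the strongest region of each list. A few items that this rule names are not reported here. The alternatives were a −log10 q of at least 5, equal list lengths, another overlap rule, windows of 250 bp around summits, isolation from other peaks, other promoter and motif windows, and leaving out each library. As a check of the code, regions were planted in the real lists away from other peaks, and GATA words in sequence of only C and G. All of these were recovered, as were nearly all simulated tag counts. Analyses ran in Python 3.11.15 (pysam 0.24.0, pandas 2.3.3, numpy 2.4.6, statsmodels 0.14.6, scipy 1.17.1, matplotlib 3.10.9).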

Additional observations from a re-analysis of the deposited data

How the results depend on the processing

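For 5 results (the number of regions, and their shares at promoters, in none of DMSO, shSUZ12 and GSK126, with AP-1 and with GATA), 66 alternatives were computed, and 39 left the count within 1.5 times or the share inside its 95% interval. The alternatives for GATA were chosen after seeing the data. Leaving out 1 library gave 2392 to 11217 regions, the highest without shE2F1 replicate 1 and 5383 without shE2F1 replicate 2, where 1 peak then sufficed. It gave a promoter share of 2.09 to 3.36%, a share in none of the 3 libraries of 53.7 to 78.9%, an AP-1 share of 22.5 to 31.5% and a GATA share of 15.7 to 22.4%. The promoter share was 4.61% with 250 bp windows and 1.2% with no other peak within 1 kb. It was 4.42% within 2.5 kb of the TSS and 7.60% with the TSS of every transcript of the protein-coding genes. With equal list lengths, 61.0% were in none of the 3 libraries, 36.5% had AP-1 and 24.8% GATA, against a GATA share of 8% in Control-only and 6.86% in shEZH2-only regions. With a −log10 q of at least 5 in shE2F1, AP-1 was at 34.0% and GATA at 24.9%, and AP-1 was at 33.0% with no other peak within 1 kb. Within 50 bp of the summit AP-1 was at 22.1% and GATA at 13.4%, and over the whole region at 36.0% and 32.5%. The cause of these moves was not tested, apart from the window lengths, which change how much sequence is searched. No paired analysis was possible because the results come from no test and the peak lists hold no reads per region. Depth limits the absences: a region without a called peak may hold tags below the caller's threshold.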
